A study of Mus musculus with 6 samples.

Results

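The transcription factor MYC, its partners, and the genes that build ribosomes were examined in URE cells, a mouse leukaemia line, by hairpin treatment. A total of 33 genes were listed by name, when earlier results of these data were already known: 6 of the MYC network, 24 of ribosome biogenesis and 3 of polyamine and pyrimidine synthesis. Of these, 31 had a microarray probe set annotated with that gene alone, out of 19938 genes measured in this way. Npm3 had no such probe set, and the only probe set of Ppan also named a second gene, so both were left out of every count.

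The series holds 6 arrays, 3 from cells with a hairpin against luciferase (shControl) and 3 from cells with a hairpin against Hlx, a homeobox transcription factor gene (shHLX). Both hairpins came in the lentiviral vector pSIH1-H1-copGFP, which also makes a green fluorescent protein, and both groups were cultured for several days and sorted for fluorescence. As background, the URE line derives from mice that lack an upstream regulatory element of the PU.1 gene, so both groups share that deletion. The study asked what Hlx does in blood cell differentiation and tumour growth. Each value is a log2 signal, on which a difference of 1 is a doubling. No source used here says whether replicates came from separate transductions, so the tests weigh differences against a spread between arrays that may be technical.

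MYC binds DNA as a pair with MAX, mostly at the E-box CACGTG, and activates genes of growth. The MXD proteins, with MXI1 among them, compete for MAX and recruit repressors to the same sites, and they tend to replace MYC as blood cells mature. Among the best known MYC targets are the genes that transcribe, modify, cut and assemble ribosomal RNA in the nucleolus, and the genes of polyamine and pyrimidine synthesis. In leukaemia cells this programme supports rapid growth.

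Some facts of the arrays as a whole bear on every value given here. Array medians ran from 7.02 to 7.10. A second principal component (18.1% of the variance) placed shControl 1 and shHLX 3 together, away from the remaining 4 arrays, and its part in the results was not tested. Hlx itself gave 10.21, 10.12 and 10.20 against 10.08, 10.06 and 10.17, which overlap (difference -0.07 in log2 signal, exact two-sided permutation p = 0.2, with 0.1 the smallest that 3 against 3 arrays allow). A knockdown of Hlx mRNA was thus not seen, and each direction rests on the labels: shHLX below means the arrays labelled so. Of 12 markers of immature myeloid cells, Elane, Prtn3 and Ctsg were bright in both groups, Ptprc and Cd34 were dim at about 6 in both, Ms4a3 (-3.45), Mpo (-1.46) and Kit (-0.73) fell and Itgam rose (0.75) with the Hlx hairpin (log2 changes, limma adjusted p under 0.05). None of the 40 measured markers of B, T and NK, erythroid, megakaryocyte, stromal and endothelial cells was called. Apart from the receptor gene Flt1, at 11.5, each had a mean signal under 8. The mean log2 level of these lists lay between 6.01 and 7.11 on the shControl arrays and between 5.92 and 7.04 on the shHLX arrays. The erythroid list lay at 6.64 to 6.70 on the shHLX arrays against 6.73 to 6.84 on the shControl arrays, and the endothelial list at 6.92 to 7.04 against 7.04 to 7.11. Only 1 of the 6 measured erythroid genes and 1 of the 7 endothelial genes were brighter than the median gene. The B, T and NK, megakaryocyte and stromal lists also had median changes below 0, from -0.06 to -0.01. Changes were above 0 in 45.4% of all genes and in 56.2% of genes brighter than the median gene. The part of these lists in the results was not tested, and fewer cells of a type cannot be told apart from less RNA per cell.

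The shift in these genes was small. Mxd4 and Ebna1bp2 passed the test, both higher with the Hlx hairpin (limma with Benjamini-Hochberg adjustment over all 19938 genes, adjusted p under 0.05), against 3.75% of all genes called higher. Of the 9969 genes brighter than the median gene, as 30 of the 31 were, 615 were called higher in the same fit. None of the 31 was called lower, against 2.43% of all genes, the nearest being Myc. At an unadjusted limma p under 0.05, 8 were higher and 1 (Myc) was lower, against 10.8% and 8.6% of all genes. At that threshold 1743 of the 9969 genes brighter than the median gene were higher and 1033 lower. The changes ran from -0.12 for Myc to 0.25 for Mxd4, and 24 of the 31 were above 0, where 45.4% of all genes were. The median change was 0.07, against -0.01 over all genes. After a second quantile normalization, which forces the arrays to 1 distribution, the median was 0.045 with 21 above 0. After centring each array on its median it was 0.09 with 24 above 0. Over all genes the median was -0.008 and then 0.008, with 46.5% and then 53.3% above 0.

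The position of the arrays leaned the same way. In 15 of the 31, or 48.4%, with the 2 called genes among them, all 3 shHLX values lay above all 3 shControl values, against 14.7% of all genes. Only for Myc did all 3 lie below, against 11.4% of all genes. The 31 genes gave bright signals, and 30 of them lay in the brighter part of the array (above the median gene), where 24.7% of genes had shHLX above shControl without overlap and 56.2% had a change above 0. The genes share the same 6 arrays and are not independent of each other, so these shares are a description.

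The E-box was looked for in the promoters of the 33 genes, to show where the MYC and MXD proteins could bind by sequence. RefSeq promoter windows of 300 bases (250 before to 50 after the start, build GRCm38) were on hand for 27 of the genes, and 7 of these, or 25.9%, held CACGTG, which reads the same on both strands. Over all genes in that table the share was 8.09%, over all 32851 promoter windows 7.15%, and over array genes brighter than the median gene 12.3%. The search was added after the array values were known, and a match is not a binding site. The genes were listed as the MYC network and kinds of gene known as MYC targets. Their share is thus not independent of that choice, and E-boxes outside the windows were not looked for. The promoters of the 2 called genes follow, each the 250 bases before the start, with the E-box in capitals. Mxd4 has 1 E-box, beginning 219 bases before the start, on the minus strand of chr5:34187711-34187960. Ebna1bp2 has none, on the plus strand of chr4:118620549-118620798.
Mxd4: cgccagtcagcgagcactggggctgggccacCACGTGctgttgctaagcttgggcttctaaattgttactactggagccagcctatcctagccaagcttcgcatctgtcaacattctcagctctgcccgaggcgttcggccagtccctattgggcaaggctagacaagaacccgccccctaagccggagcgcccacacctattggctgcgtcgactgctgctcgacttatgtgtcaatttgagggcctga
Ebna1bp2: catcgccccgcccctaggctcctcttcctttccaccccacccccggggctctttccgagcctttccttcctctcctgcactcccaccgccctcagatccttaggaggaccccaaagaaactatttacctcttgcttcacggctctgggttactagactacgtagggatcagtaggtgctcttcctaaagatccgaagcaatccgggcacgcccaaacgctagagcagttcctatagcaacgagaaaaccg

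The other 6 genes with an E-box are shown with at most 12 bases on either side of it, cut at the edge of the window, so that the flanks can be compared. The stretches are chr12:76962234-76962263 (minus strand) for Max, chr6:125131811-125131840 (plus) for Nop2, chr11:3963965-3963994 (plus) for Pes1, chr17:71616220-71616249 (plus) for Wdr43, chr10:88826765-88826789 (minus) for Utp20 and chr11:72441355-72441376 (plus) for Mybbp1a. The E-box begins 60 bases before the start in Nop2 and 3 bases before it in Max. It begins at base 3 after the start in Pes1, 18 in Wdr43, 38 in Utp20 and 41 in Mybbp1a.
Max: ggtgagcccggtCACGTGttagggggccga
Nop2: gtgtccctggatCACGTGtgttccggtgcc
Pes1: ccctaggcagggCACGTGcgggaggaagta
Wdr43: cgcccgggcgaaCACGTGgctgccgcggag
Utp20: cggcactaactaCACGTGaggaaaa
Mybbp1a: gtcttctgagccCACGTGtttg

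The 7 measured genes with an E-box had changes of 0.03 (Mybbp1a) to 0.25 (Mxd4), with a median of 0.10. The 18 measured genes whose windows held none had a median change of 0.04, from -0.08 to 0.23, and 12 of them were above 0. These are descriptions with no test, since the 7 genes were not set apart in advance.

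Within the MYC network, the antagonist Mxd4 rose and the others did not pass. Mxd4 encodes a repressor that pairs with MAX. Its values were 10.32, 10.49 and 10.39 on the shControl arrays and 10.66, 10.64 and 10.66 on the shHLX arrays. The groups were clearly apart and the shHLX arrays nearly equal, with means of 10.40 ± 0.085 and 10.65 ± 0.014 (SD, n = 3 each). In limma the level was 1.19 times control, with a 95% interval of 1.09 to 1.30 and an adjusted p of 0.0321. Removing any array other than shControl 2 ended the call (limma adjusted p from 0.0788 to 0.127), while the change stayed between 0.21 and 0.30. A fit without variance moderation did not call Mxd4 either (adjusted p = 0.0973).

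Mxd1, the MXD gene best known for rising as granulocytes mature, lay in the same direction without passing. The shControl arrays read 9.55, 9.52 and 9.41 and the shHLX arrays 9.66, 9.79 and 9.69. The groups did not overlap, and the difference of 0.22 (SE 0.06) had a limma adjusted p of 0.069. Mxi1, a further antagonist, gave 9.73, 9.82 and 9.79 against 9.71, 9.79 and 9.67. These overlapped, with a difference of -0.06 (95% confidence interval -0.18 to 0.06).

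Myc itself was lower by 0.12 and did not pass the test. The shControl arrays read 12.79, 12.77 and 12.78, and the shHLX arrays read 12.64, 12.69 and 12.67. Every shHLX array was below every shControl array, by a margin that is small on the fold scale but several times the SD of 0.011 and 0.026. As a ratio to control this was 0.92 (interval 0.86 to 0.98), with a limma adjusted p of 0.163 over all genes and an unadjusted p of 0.0214. Limma with a variance trend on intensity called it lower (adjusted p = 0.00452), as did limma over the genes brighter than the median gene (0.0386) and a fit without variance moderation (0.0487). The other settings did not call Myc. Its limma adjusted p was 0.424 after centring, 0.312 with the replicate block and 0.206 to 0.385 with 1 array left out.

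Max, the shared partner, gave 10.75, 10.75 and 10.78 against 10.78, 10.83 and 10.82. The groups touched without overlapping, and the difference of 0.06 did not pass (limma adjusted p = 0.502). Mycn, a second MYC gene that is active in early progenitors, varied more within each group than between them. It gave 6.70, 7.13 and 6.98 against 7.03, 7.02 and 6.78, and its difference of 0.01 turned negative without shControl 1 (-0.11). No background values were used here, so whether so dim a signal as that of Mycn is above background is unknown.

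**Figure D1:**
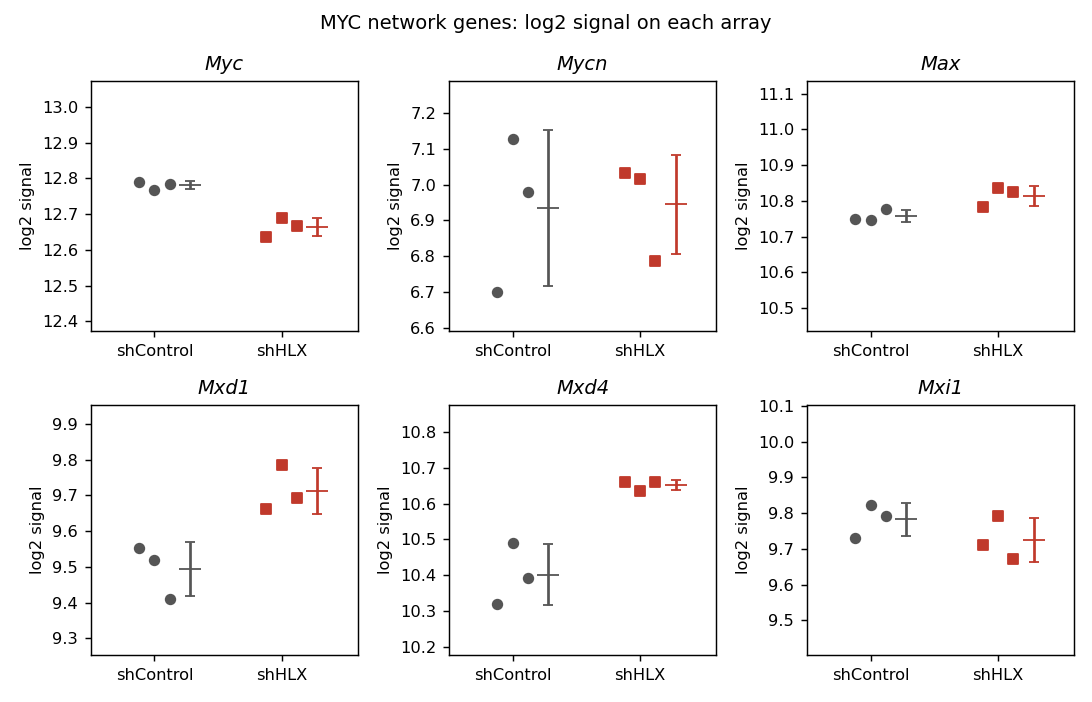
Log2 signal (vertical axis, the same span in each panel) of the 6 MYC network genes on the 3 shControl (grey circles) and 3 shHLX arrays (red squares), with the mean and SD of each group beside the points. All shHLX points of Mxd4 and Mxd1 lie above the shControl points and all of Myc lie below, while Mycn and Mxi1 overlap.

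Of the 22 measured ribosome biogenesis genes, Ebna1bp2 rose and 21 did not pass, where 3.75% of all genes were called higher. Among the 9969 genes brighter than the median gene, 615 were called higher. Of the 22, 17 had a change above 0. In 9, or 40.9%, the shHLX arrays lay above the shControl arrays without overlap, against 14.7% of all genes and 24.7% of genes brighter than the median gene, as all 22 were. In 0 of the 22 did they lie below without overlap, against 11.4% and 14.8%. After a second quantile normalization 14 of the 22 were above 0 and the median was 0.05 in place of 0.08. Their mean deviation from the mean of all 6 arrays was -0.03, -0.06 and -0.01 on the shControl arrays and -0.01, 0.05 and 0.04 on the shHLX arrays. On this average, shHLX 1 did not stand above shControl 3, so the shift rested mainly on shHLX 2 and shHLX 3.

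Genes for assembling the large ribosomal subunit were uniform in direction. All 7 measured had a change above 0, with a median of 0.10, and 6 of the 7 were above 0 after a second quantile normalization, where Wdr12 was at -0.02. Ebna1bp2, which encodes a nucleolar factor needed early in 60S subunit assembly, gave 9.48, 9.42 and 9.54 with the control hairpin. With the Hlx hairpin it gave 9.64, 9.74 and 9.76, and all 3 lay above the control values. The means were 9.48 ± 0.061 and 9.71 ± 0.064 (SD, n = 3 each). In limma this was 1.17 times control, with a 95% interval of 1.08 to 1.28 and an adjusted p of 0.0483. The call lay close to the threshold and ended with the removal of each array in turn (limma adjusted p from 0.0619 to 0.147), the change lying between 0.20 and 0.27. It also ended after a second quantile normalization or centring, with a robust prior or array weights, and without variance moderation (adjusted p from 0.0517 to 0.122).

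Nop16, a nucleolar protein gene and known MYC target, gave 11.38, 11.43 and 11.41 against 11.52, 11.59 and 11.56. The groups were apart by more than their own spread, and the difference of 0.15 (SE 0.04) had a limma adjusted p of 0.104. Nop2, which encodes a methyltransferase of large subunit ribosomal RNA, gave 10.50, 10.59 and 10.59 against 10.64, 10.68 and 10.68. Its difference of 0.10 did not pass (adjusted p = 0.28), although the groups did not overlap.

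Bop1, Pes1 and Wdr12 encode the PeBoW complex, which is needed to mature the large subunit RNA. Their differences were 0.06, 0.11 and 0.02, and none passed (limma adjusted p 0.373 to 0.888). Bop1 arrays were separated by a gap of under 0.01, while Pes1 and Wdr12 overlapped. Wdr12 had a second, dimmer probe set that gave 8.89, 8.84 and 8.79 against 8.84, 8.91 and 8.99, a difference of 0.07. Gnl3, which encodes the GTPase nucleostemin, gave 10.33, 10.31 and 10.29 against 10.35, 10.31 and 10.47, so 1 shHLX array carried most of its difference.

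Among the 4 small subunit genes, none passed, and 3 had shHLX arrays above shControl arrays. This held for 14.7% of all genes and 24.7% of genes brighter than the median gene, as all 4 were. Utp20, which encodes a large scaffold of the small subunit processome, gave 9.75, 9.78 and 9.77 against 9.88, 9.91 and 9.94. The gap between the groups exceeded the range within either, and the difference was 0.14 (SE 0.04, limma adjusted p = 0.103). Rrp12, an export and assembly factor, had the tightest arrays, at 8.46, 8.45 and 8.47 against 8.52, 8.54 and 8.54. Its level was 1.05 times control, which a fit without variance moderation called higher (adjusted p = 0.021) and limma did not (0.377). Utp20, at 1.10 times control, was called higher by limma with an intensity trend (adjusted p = 0.023) or over the genes brighter than the median gene (0.0202), and without variance moderation (0.0493). The other settings did not call Utp20, with a limma adjusted p of 0.219 with the replicate block and 0.168 to 0.272 with 1 array left out. Wdr43, a factor of early small subunit assembly, differed by 0.10 (SE 0.04, adjusted p = 0.245) without overlap. Noc4l, a further assembly factor, lay the other way, with 10.43, 10.27 and 10.37 against 10.29, 10.27 and 10.27, and its groups overlapped at shControl 2.

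The genes of small nucleolar ribonucleoproteins (snoRNPs), which guide the chemical modification of ribosomal RNA, split evenly. Of the 6, 3 were above 0 and 3 below, with a median of -0.01. It was -0.04 after a second quantile normalization and 0.01 after centring each array on its median. Over all genes the medians were -0.01, -0.01 and 0.01 in turn. None of the 6 passed. The core proteins of methylation-guiding snoRNPs are encoded by Nop56, Nop58 and the methyltransferase gene Fbl. Nop58 gave 9.98, 9.87 and 9.98 against 10.00, 10.07 and 10.07, the only one of the 6 without overlap (difference 0.10, limma adjusted p = 0.318). Nop56 gave 12.20, 12.20 and 12.25 against 12.17, 12.25 and 12.28, and its difference of 0.01 was -0.02 after a second quantile normalization. Fbl differed by 0.08 on both of its probe sets.

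Dkc1, which encodes the pseudouridine synthase dyskerin, had the widest spread of the snoRNP genes. It gave 10.53, 10.21 and 10.55 against 10.30, 10.46 and 10.29. shControl 2 stood below the whole shHLX group and the other controls above it, so the difference of -0.08 (95% confidence interval -0.31 to 0.14) was poorly fixed. Rrp9, a protein of the U3 snoRNP, and the snoRNP chaperone gene Nolc1 each differed by -0.04 with overlapping groups.

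Of the 5 measured genes for ribosomal DNA transcription and general nucleolar work, none passed and 4 were above 0. Ddx21, an RNA helicase gene that links RNA polymerases I and II, gave 11.37, 11.43 and 11.45 against 11.46, 11.58 and 11.57. The groups did not overlap, and the difference was 0.12 (SE 0.05, limma adjusted p = 0.234). Polr1b, which encodes the second largest subunit of RNA polymerase I, lay lower, with 11.08, 11.02 and 11.06 against 10.91, 11.05 and 10.98. These overlapped, at a difference of -0.07 (adjusted p = 0.472).

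Ncl and Npm1 encode nucleolin and nucleophosmin, abundant nucleolar proteins. Ncl gave 11.64, 11.55 and 11.59 against 11.61, 11.69 and 11.79, and Npm1 gave 11.37, 11.27 and 11.27 against 11.30, 11.36 and 11.51. In both, shHLX 3 was the highest array and the groups overlapped. Mybbp1a, a repressor of ribosomal DNA transcription, differed by 0.03, which was 0.00 after a second quantile normalization.

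**Figure D2:**
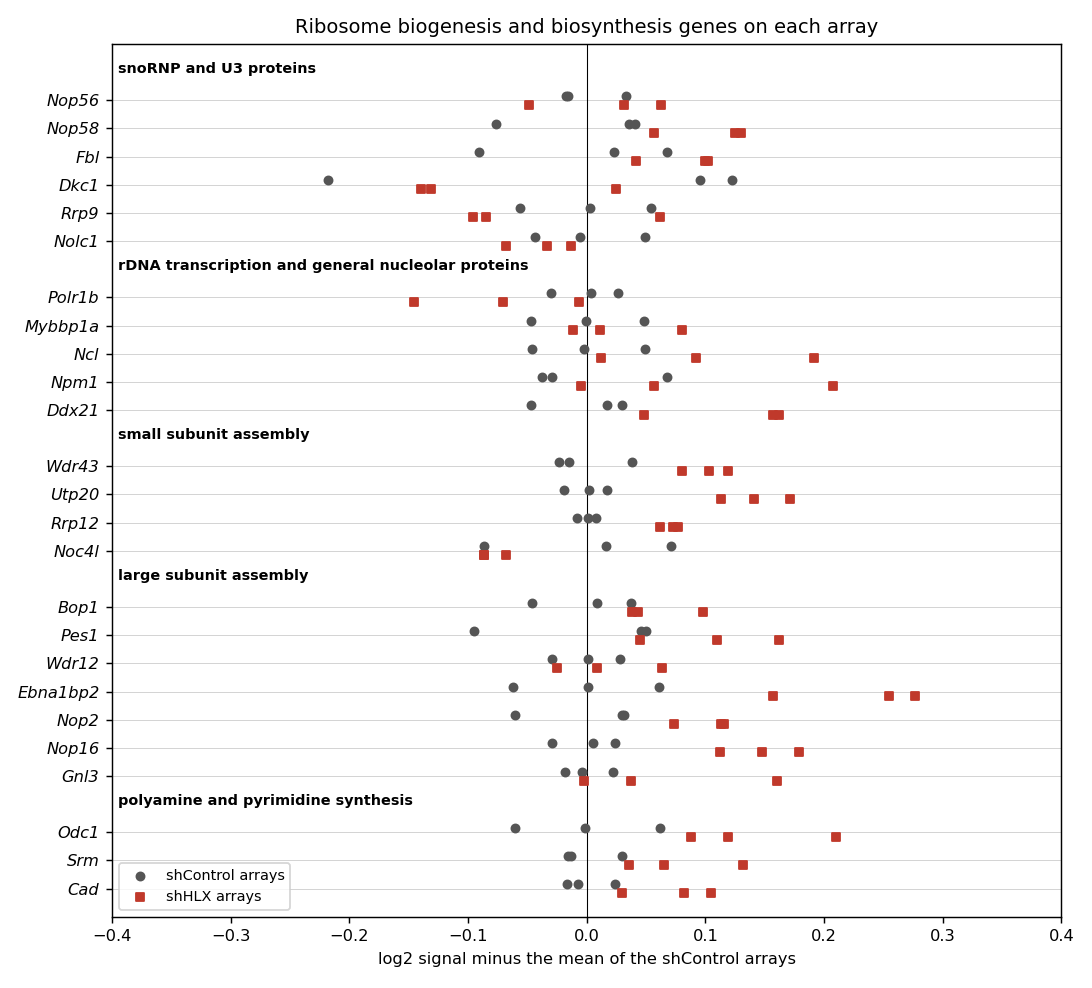
Log2 signal minus the mean of the shControl arrays (horizontal axis) for the 25 measured genes outside the MYC network, with shControl arrays as grey circles and shHLX arrays as red squares, grouped by role. The shHLX squares lie to the right of all circles for 12 genes and to the left of all circles for 0. Among all genes these shares were 14.7% and 11.4%, and among genes brighter than the median gene 24.7% and 14.8%.

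The 3 genes of polyamine and pyrimidine synthesis each had shHLX arrays above shControl arrays, and none passed. Such separation was seen in 14.7% of all genes and 24.7% of genes brighter than the median gene, as all 3 were. Odc1 encodes ornithine decarboxylase, which makes the first polyamine and is a long-known MYC target. Its brighter probe set gave 10.21, 10.09 and 10.15 against 10.24, 10.27 and 10.36, a difference of 0.14 (SE 0.05, limma adjusted p = 0.209). A second Odc1 probe set gave 9.29, 9.11 and 9.28 against 9.34, 9.51 and 9.59. There the difference was 0.25, or 1.19-fold, so the probe sets agreed in direction and the dimmer gave the larger value, also without passing (adjusted p = 0.118 with every probe set tested). Srm, the spermidine synthase gene, gave 12.33, 12.33 and 12.37 against 12.41, 12.48 and 12.38. Cad, whose product starts pyrimidine synthesis, gave 10.31, 10.35 and 10.32 against 10.36, 10.41 and 10.43. Both sets of groups were separated by under 0.01, with differences of 0.08 and 0.07.

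**Figure D3:**
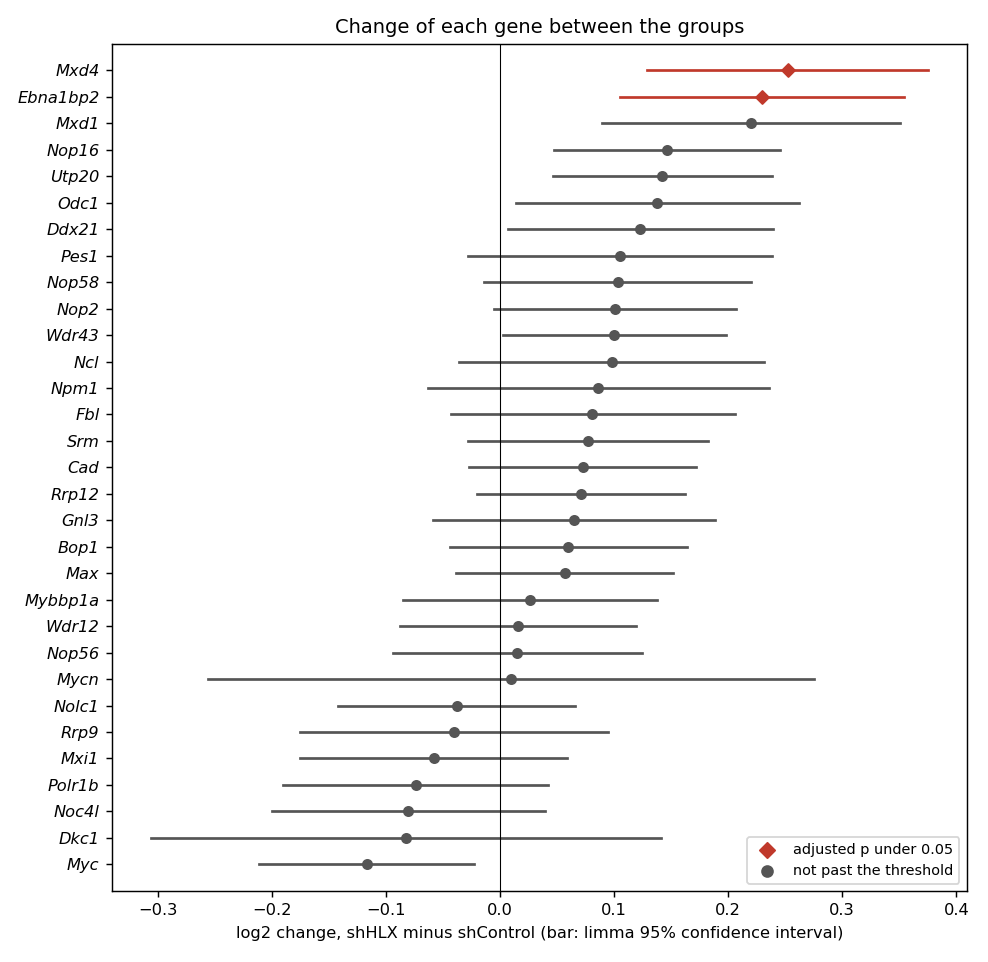
Log2 change of each of the 31 genes between shHLX and shControl (horizontal axis) with limma's 95% confidence interval, ordered by size. Mxd4 at 0.25 and Ebna1bp2 at 0.23 (red diamonds) passed the threshold, and most other points lie between 0 and 0.15 with intervals that reach or nearly reach 0.

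The other genes of the pathway, from lists that do not hold the 31, were read in the same way. Among the 178 measured genes for RNA polymerases I and III, subunit assembly, snoRNPs and RNA trimming, 3 rose, 0 fell and 175 did not pass. In the same fit 3.75% of all genes were called higher and 2.43% lower. Of the 9969 genes brighter than the median gene, as all 178 were, 615 were called higher. The 3 rises are thus not more than the share of calls among genes at large. Of the 178, 129 were above 0, where 45.4% of all genes and 56.2% of genes brighter than the median gene were. The median of the 178 was 0.04, against 0.02 for genes brighter than the median gene. After a second quantile normalization 97 were above 0 and the median was 0.01. Over all genes the median was then -0.008, with 46.5% above 0. After centring each array on its median 144 of the 178 were above 0 and the median was 0.05. Centring moves all genes of an array alike, and the median over all genes was then 0.008, with 53.3% above 0. The counts above 0 thus depended on how arrays were scaled. All 3 that rose belonged to the 57 measured small subunit genes, a list that is singled out here only by its calls.

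Dcaf13, a small subunit processome gene, gave 9.80, 9.80 and 9.86 against 10.03, 10.04 and 10.04. The groups were wide apart for their spread, and the rise was 0.22 (SE 0.04, limma adjusted p = 0.0225). Tsr3, whose product modifies small subunit RNA, rose by 0.23 (adjusted p = 0.0304), and Rrp8 rose by 0.21 (adjusted p = 0.0339). Rrp8 encodes a nucleolar methyltransferase that is known to act on large subunit RNA, although it stood in this list. Dcaf13 and Rrp8 lost their calls on removal of each array in turn (adjusted p up to 0.083 and 0.107), and Tsr3 kept it in 1 of 6 such fits (adjusted p 0.0453 to 0.11).

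Of 55 further large subunit genes, none passed and 46 were above 0. After a second quantile normalization 35 were above 0, and after centring each array on its median 48 were. For all genes these shares were 45.4%, 46.5% and 53.3% in turn. Among the 55, the smallest p belonged to Noc3l (0.24, limma adjusted p = 0.0526) and Nip7 (0.16, adjusted p = 0.079). At an unadjusted p under 0.05, 7 were higher and 1 lower. At that threshold 10.8% of all genes were higher and 8.6% lower. Of the 9969 genes brighter than the median gene, 1743 were higher and 1033 lower. Of 14 RNA polymerase I genes none passed, with 0 at an unadjusted p under 0.05 and 10 above 0, the smallest p being those of Polr1d (0.10) and Top1 (0.14). Of 20 RNA polymerase III genes none passed, with 3 higher at an unadjusted p under 0.05, and Gtf3c1 (0.17, adjusted p = 0.082) and Polr3b (0.13) came nearest.

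Further snoRNP genes were split like the 6 above, with 7 of 15 above 0 and none past the threshold. Rpap3, a chaperone of snoRNP assembly, differed by -0.24 (limma adjusted p = 0.0604) and Nhp2, a core protein with dyskerin, by 0.20 (adjusted p = 0.0678), with 2 genes each way at an unadjusted p under 0.05. The shares to set beside this and the counts that follow are 10.8% of all genes higher and 8.6% lower. Of 17 exosome and trimming genes none passed, with 1 higher (Isg20l2, 0.09) and 1 lower (Exosc8, -0.10) at an unadjusted p under 0.05. Of 55 measured ribosomal protein genes none passed, with 2 higher at an unadjusted p under 0.05, Rpl14 (0.28, adjusted p = 0.113) and Rps13 (0.11). Their median was 0.00 and 24 were above 0, with 14 above 0 after a second quantile normalization and 35 after centring each array on its median. For all genes the shares above 0 were 45.4%, 46.5% and 53.3% in turn. The other 24 MYC network and cofactor genes held none past the threshold, with the acetyltransferase gene Kat5 (0.13) and the antagonist Mxd3 (-0.10) nearest and 1 higher and 2 lower at an unadjusted p under 0.05.

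Most polyamine and nucleotide genes beyond the 3 above did not pass. Of 27 measured, 24 did not, 2 rose and 1 fell, where 3.75% of all genes were called higher and 2.43% lower. Sat1, which encodes the enzyme that marks polyamines for breakdown and export, gave 10.98, 10.90 and 10.96 against 11.17, 11.18 and 11.17. The rise was 1.17-fold and the shHLX arrays were nearly equal (limma adjusted p = 0.0194). Uck2, a uridine salvage kinase gene, rose by 0.19 (adjusted p = 0.0367), and Impdh1, an enzyme gene of guanine nucleotide synthesis, fell by 0.22 (adjusted p = 0.025). Leaving out 1 array ended the Uck2 call in all 6 fits (adjusted p up to 0.151) and those of Sat1 and Impdh1 in 5 of 6 (up to 0.0775 and 0.103).

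**Figure D4:**
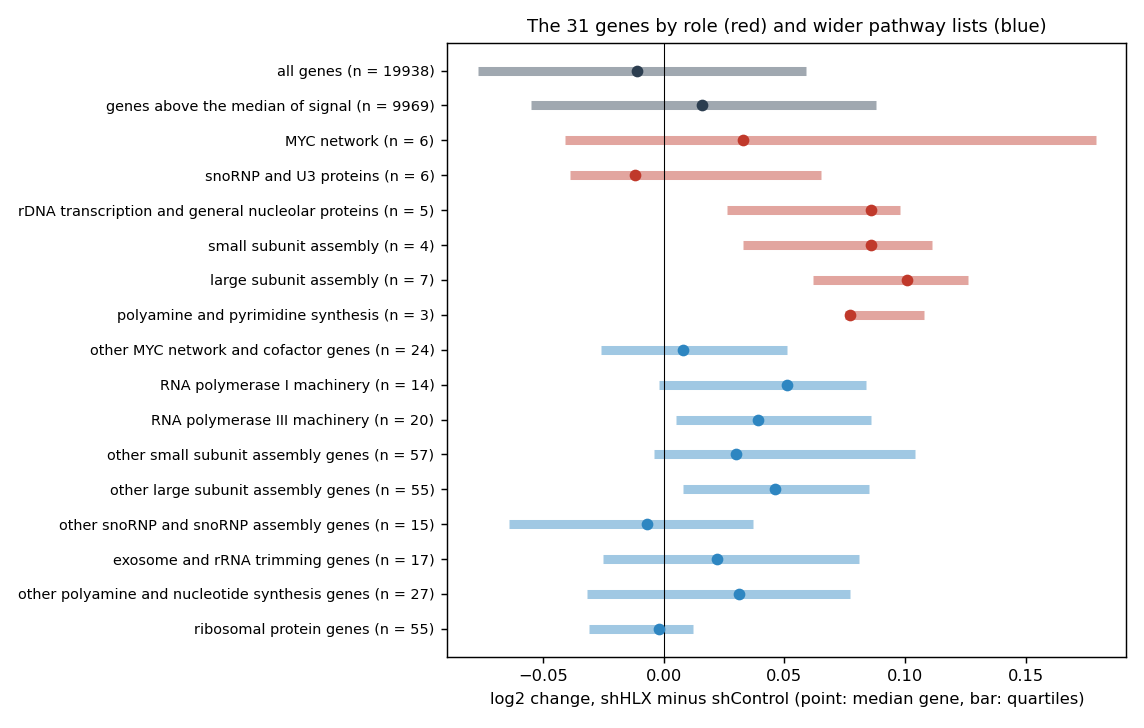
Median (point) and quartiles (bar) of the log2 change between shHLX and shControl (horizontal axis) for all genes, genes brighter than the median gene, the 31 genes by role (red) and the wider pathway lists (blue). The large subunit genes have the highest median among the roles, at 0.10, while both snoRNP sets and the ribosomal protein genes lie near 0.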

How the data were processed

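A total of 6 arrays of RNA from sorted URE cells were used, 3 for each hairpin, from 10 ng of amplified RNA each. Log2 signals for 35556 probe sets were deposited, made by the authors with RMA and Affymetrix Power Tools 1.178, per the submitters' processing notes. No source used here names the genome build or how probes were grouped. RMA equalises array distributions, which can compress or shift small differences.

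Of the probe sets, 21789 named 1 symbol. Keeping the brightest per gene left 19938 genes, dim ones included. The test was limma's (version 3.58.1, R 4.3.3; two-sided, default eBayes, group as the only term), adjusted over all genes, threshold 0.05. Values are mean ± SD; with 3 a group, the number of arrays limits precision. The code was tested on simulated data. Of 322 wider pathway genes in 9 lists, 284 had a probe set of their own, and up to 4 called genes a list, or otherwise the 2 with the smallest p, were named. The genes and lists were chosen with earlier results of these data known. Alternatives were another normalization, centring, signal filters, variance models, array weights, probe set rules, a threshold of 0.10, a replicate block and leaving out each array. Python 3.11.15 and matplotlib 3.10.9 made the figures.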

Additional observations from a re-analysis of the deposited data

How the results depend on the processing

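With 3 arrays a group, changes near 0.1 on the log2 scale lay below what the main test called, even where arrays were tight. Mxd3, at -0.10 with an SD of 0.011 in each group, had a limma adjusted p of 0.212. Utp20, at 0.14 (SE 0.04), had a limma adjusted p of 0.103. Most of the 31 changes were of this size or smaller, so not passing does not show that a gene was unchanged. Over all genes the median change was -0.011, with -0.008 after a second quantile normalization and 0.008 after centring. The median change of the 31 genes was 0.07, with 0.07 to 0.08 when 1 array was left out, 0.045 after a second quantile normalization, 0.06 with array weights and 0.09 after centring. The count called higher was 2, and 1 after a second quantile normalization, centring or a robust prior, 5 among genes brighter than the median gene (with Mxd1, Nop16 and Utp20), 6 with an intensity trend (these and Ddx21), 2 without variance moderation (Rrp12 and Utp20, not Mxd4 or Ebna1bp2), 2 with array weights (Mxd1 and Mxd4), 0 with the replicate block, and 0 to 1 with 1 array left out. The count called lower was 0, and 1 (Myc) among genes brighter than the median gene, with an intensity trend or without variance moderation. Of all 19938 genes 1233 were called, with 2261 for an intensity trend, 800 for the replicate block and 698 to 901 with 1 array left out. Among the 9969 genes brighter than the median gene, where 30 of the 31 were tested, 2064 were called. Of the 284 measured wider pathway genes 6 were called, and 12 above the 25th percentile of signal, with array weights or at an adjusted p under 0.10, 25 of the 279 above the median, 27 with an intensity trend, 0 with the replicate block and 0 to 2 with 1 array left out. Where a filter called more, fewer genes were tested; the other causes were not tested. Changes of sign were seen in 4 genes, none of them called. Mybbp1a was -0.002 after a second quantile normalization, -0.003 with array weights and -0.001 to 0.05 with 1 array left out. Nop56 was -0.023, -0.022 and -0.009 to 0.047 in turn, Wdr12 was -0.018 after a second quantile normalization and -0.008 to 0.036 with 1 array left out, and Mycn was -0.108 to 0.106 with 1 array left out. Replicate numbers share no stated batch, and the deviations of same-numbered arrays correlated at -0.17, 0.13 and -0.15. Those of differently numbered arrays ran from -0.25 to 0.34 (shControl 1 with shHLX 3). The replicate block is thus not known to pair arrays, and a batch shared across other numbers was not tested. Hlx was called under none of these.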

Other observations

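Several of the 31 genes carry small nucleolar RNA (snoRNA) genes within their bounds, which guide the modification of ribosomal RNA and are usually cut from the introns of their hosts. By the RefSeq gene table, 19 such genes lie inside the 31, and 4 had a probe set of their own. They were looked up after the values of their hosts were known. Snord57, inside Nop56, gave 11.89, 11.78 and 11.79 on the shControl arrays and 11.59, 11.61 and 11.64 on the shHLX arrays. It fell by 0.21 (SE 0.05, limma adjusted p = 0.0452) without overlap, while Nop56 differed by 0.01. Snord53, inside Wdr43, gave 11.21, 11.17 and 11.21 against 11.03, 10.90 and 10.86. It fell by 0.26 (SE 0.06, limma adjusted p = 0.0321), while Wdr43 differed by 0.10 in the other direction. The difference between snoRNA and host was not tested. Snord57 lost its call on removal of each array in turn (limma adjusted p from 0.0823 to 0.144), and Snord53 kept it in 1 of 6 such fits (0.0211 to 0.128). Inside Ncl, Snora75 differed by 0.28 (limma adjusted p = 0.076, without overlap) and Snord82 by -0.12 (adjusted p = 0.429, with overlap).

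The probe sets that name a gene of the set beside another gene entered no count. For Ppan the shared probe set gave 10.94, 10.93 and 11.02 against 10.93, 10.96 and 10.95, a difference of -0.01. For Npm1, 3 probe sets that also name Gm15484 differed by -0.03, 0.00 and 0.00, against 0.09 for the probe set of Npm1 alone. These values were added after the data were seen.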
